A study of Homo sapiens with 6 samples.

Results

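The genes HS3ST1, RAB28, NKX3-2, BOD1L1, CPEB2 and CC2D2A lie on the short arm of chromosome 4, at about 11 to 16 Mb of hg38. They are 6 of the 14 protein-coding genes that overlap this span, and of 19970 protein-coding genes on chromosomes 1 to 22 and X. They were chosen by position around RAB28, and RAB28 was chosen because its gene body lay inside LaminB1 regions far more in one group than in the other. The difference between groups at these genes is therefore described here and not tested. The gap is that between the lowest double loss list and the highest control list. In its order, RAB28 was at 63.1 percentage points, the 12th of 2249 covered genes of at least 20 kb, with TMEM168 at 64.2 points just before it and NELL2 at 62.9 points just after it.

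LaminB1 was mapped by CUT&RUN, in which an antibody directs a nuclease that cuts and releases the chromatin it is bound to, in HCT116, a human colorectal carcinoma line. The double loss group, labelled DKO, was the HCT116 TOP2A mAID/TOP2B -/- line after 8 h in 500 uM auxin, a treatment that the design text credits with loss of up to 95% of TOP2A. The control group, labelled WT with the genotype wildtype, was by the series text and protocols the TOP2A mAID line, and its lists are marked as without auxin. All cells had been kept in G1 by 28 h in 2 uM palbociclib, and in both groups the endogenous TOP2A carries the auxin-inducible degron mAID. A group comprised 2 libraries for LaminB1 and another made with IgG, and the data are 1 list of called regions for each of the 4 LaminB1 libraries, numbered by replicate. The labels do not say whether the knockout line is 1 clone or whether each replicate was grown separately, and the spread between lists may be technical. Genotype, auxin, cell line and control library change together between the groups and cannot be told apart.

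LaminB1 is a filament protein under the inner nuclear membrane. Chromatin that touches it forms long lamina-associated domains, which are mostly gene-poor, late replicating and little transcribed, and which begin and end near active genes. TOP2A and TOP2B are the type II topoisomerases, which pass one DNA duplex through another and so remove supercoils and tangles. In the span here, a gene desert with long noncoding RNA genes separates HS3ST1 from RAB28. A small cluster of RAB28, NKX3-2 and BOD1L1 sits in the middle of the span. Another desert separates BOD1L1 from CPEB2 and the gene-rich end at CC2D2A.

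The annotated starts of RAB28, NKX3-2 and BOD1L1 lay inside regions in both double loss lists and in neither control list. Those of HS3ST1, CPEB2 and CC2D2A lay outside regions in all 4 lists. For NKX3-2, on the minus strand, the start used was base 13544508, inside its gene body. The upstream end of that gene body, at 13547744, lay outside regions in double loss 2, between the region that ended at 13546000 and that from 13552001. The 250 bases before the start of RAB28 and of BOD1L1, both read from the minus strand, are shown as examples of promoter sequences taken into regions in the double loss lists. Those before NKX3-2 were likewise taken into regions and are not shown. CG dinucleotides are in capitals (RefSeq, GRCh38.p14).
RAB28, chr4:13484341-13484590: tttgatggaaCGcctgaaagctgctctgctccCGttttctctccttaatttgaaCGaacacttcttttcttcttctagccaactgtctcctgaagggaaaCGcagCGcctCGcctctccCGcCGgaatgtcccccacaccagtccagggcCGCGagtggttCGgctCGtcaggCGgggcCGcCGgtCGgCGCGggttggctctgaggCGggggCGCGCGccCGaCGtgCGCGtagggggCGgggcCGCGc
BOD1L1, chr4:13627726-13627975: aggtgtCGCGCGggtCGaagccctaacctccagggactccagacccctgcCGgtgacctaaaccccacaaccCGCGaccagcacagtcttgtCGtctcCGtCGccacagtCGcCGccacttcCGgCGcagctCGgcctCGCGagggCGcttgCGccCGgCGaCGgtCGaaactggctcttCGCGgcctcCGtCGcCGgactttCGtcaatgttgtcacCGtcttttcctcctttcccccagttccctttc
The RAB28 sequence has 29 CG dinucleotides and the BOD1L1 sequence 30, against a median of 11 over 35116 promoters of that length. At least as many were found in 14.1% and 12.4% of all promoters. GGGCGG, the core of a GC box, was found on either strand 1 time before RAB28 and not before BOD1L1, and 42.6% of all promoters hold it. TATAAA was found in neither, on either strand, and 10.7% of all promoters hold it. Before NKX3-2 there were 22 CG dinucleotides in 250 bases, with 4 matches of GGGCGG and no TATAAA on either strand. The 250 bases before HS3ST1 and CPEB2, whose starts were never inside a region, hold 25 and 40 CG dinucleotides, so CG-rich promoters stood on both sides of this division. Those before the annotated starts of CC2D2A, also never inside a region, hold 6, 6 and 2. The 250 bases before BOD1L1 also hold the whole gene of hsa-miR-5091, on the plus strand, whose mature sequence lies at chr4:13627875-13627897 and is shown with its seed, bases 2 to 8, in capitals.
hsa-miR-5091: aCGGAGACgacaagacugugcug

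RAB28, NKX3-2 and BOD1L1 were covered nearly throughout in the double loss lists, HS3ST1 was covered in no list, and CPEB2 and CC2D2A were covered less in the double loss lists than in the control lists. Covered share means the percentage of a gene body, from its first to its last annotated base, that lies inside the regions of a list. Of the 6 members, both double loss lists lay above both control lists for 3 and below both for 2. Over the 3057 protein-coding genes with covered sequence in any list, the same held for 21.5% and 13.8%. The members were chosen on this contrast, so nothing is read from these counts.

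RAB28 encodes a small GTPase of the Rab family that acts at primary cilia and in photoreceptors, and it spans 13367724 to 13484340. Its covered share was 94.0% and 100% in double loss lists 1 and 2, against 30.9% and 15.4% in control lists 1 and 2. The groups did not overlap, and the means were 97.0% ± 4.24 in the double loss group and 23.2% ± 10.9 in the control group (SD, n = 2 each). The control coverage came from 1 region per list, at 13409001 to 13445000 in control 1 and at 13371001 to 13389000 in control 2, and these did not overlap each other. No part of RAB28 was thus inside regions in all 4 lists, and 55.6 kb of its 116.6 kb was covered in both double loss lists but in no control list.

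NKX3-2, at 13540830 to 13547744, encodes a homeobox transcription factor of cartilage and skeletal development. Its covered share was 100% and 74.8% in the double loss lists, against 0% in both control lists. BOD1L1, at 13568738 to 13627725, encodes a protein that protects stalled replication forks. Its covered share was 100% and 93.2% in the double loss lists, against 24.2% and 52.6% in the control lists. In both genes the groups did not overlap, and the gaps exceeded the spread within either group.

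HS3ST1, at 11393150 to 11434327, encodes a sulfotransferase that places the 3-O-sulfate of antithrombin-binding heparan sulfate. It was at 0% in all 4 lists. CPEB2, at 15002481 to 15070151, encodes an RNA-binding regulator of polyadenylation and translation. Its covered share was 31.0% and 31.3% in the double loss lists, against 37.2% and 47.3% in the control lists. CC2D2A, at 15469865 to 15601557, encodes a component of the ciliary transition zone. It was at 0% in both double loss lists, against 42.5% and 10.6% in the control lists. The groups did not overlap for CPEB2 or CC2D2A, but in both genes the control lists differed from each other by more than the gap between the groups. The mean of the double loss lists was 11.1 points lower for CPEB2 and 26.6 points lower for CC2D2A, against 73.8 points higher for RAB28.

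**Figure D1:**
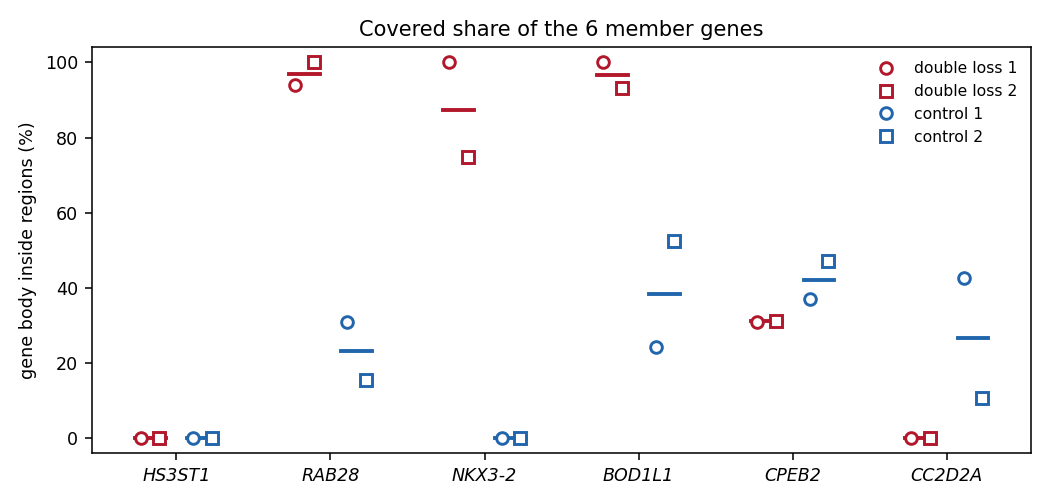
Percentage of each member gene body inside LaminB1 regions (vertical axis) for the 2 double loss lists (red) and the 2 control lists (blue); circles are replicate 1, squares replicate 2 and bars group means. RAB28, NKX3-2 and BOD1L1 lie at 74.8% or more in the double loss lists and at 52.6% or less in the control lists, HS3ST1 is at 0% throughout, and CPEB2 and CC2D2A are lower in the double loss lists.

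The other 8 protein-coding genes of the span all lie near CC2D2A or beyond it. C1QTNF7, a secreted C1q-related protein gene next to CC2D2A, was covered at 96.1% and 91.4% in the double loss lists, against 100% and 96.1% in the control lists. The groups touched there. PROM1, which encodes the membrane glycoprotein prominin-1, was at 0% and 25.9% in the double loss lists, against 32.8% and 6.93% in the control lists, so its groups overlapped. The other 6, among them FBXL5 of an iron-sensing ubiquitin ligase and the NAD-consuming enzymes BST1 and CD38, were at 0% in all 4 lists. A steep rise of covered share in the double loss lists was found at the genes in the middle of the span. These lie around RAB28, which was chosen on this contrast. Towards the right end, CPEB2 and CC2D2A went the other way.

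Region edges at the ends of the span lay close together in all 4 lists. Left of HS3ST1, the last region ended at 11356000 and 11367000 in the double loss lists, against 11368000 and 11356000 in the control lists. Coverage began again at 11830001 and 11828001 in the double loss lists, against 11808001 and 11817001 in the control lists, so HS3ST1 and the desert beside it formed an uncovered gap common to all lists. Before CC2D2A, the long covered stretch ended at 15442000 and 15441000 in the double loss lists, against 15448000 and 15446000 in the control lists. The control lists had further short regions inside CC2D2A, from 15487001 to 15505000 and 15542001 to 15580000 in control 1 and from 15544001 to 15558000 in control 2, and the double loss lists had none.

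The middle of the span looked different in the double loss lists. From 13275001 to 14475000 in double loss 1, sequence was covered by 4 regions, and from 13282001 to 14456000 in double loss 2 by 5 regions. Over the part common to both, 13282001 to 14456000, the covered share was 98.7% and 98.2% in the double loss lists, against 54.9% and 49.8% in the control lists. In the control lists 20 and 25 regions lay at least 50% inside the same 1174 kb. The region from 14014001 to 14475000 in double loss 1, 461 kb wide, was the longest of 1111 on chromosome 4 in that list. The one from 14016001 to 14456000 in double loss 2, 440 kb wide, was the third longest of 1113. In the control lists the widest regions of the span were 166 and 162 kb, the 33rd of 810 and the 24th of 1062 on chromosome 4, and both lay outside this stretch.

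**Figure D2:**
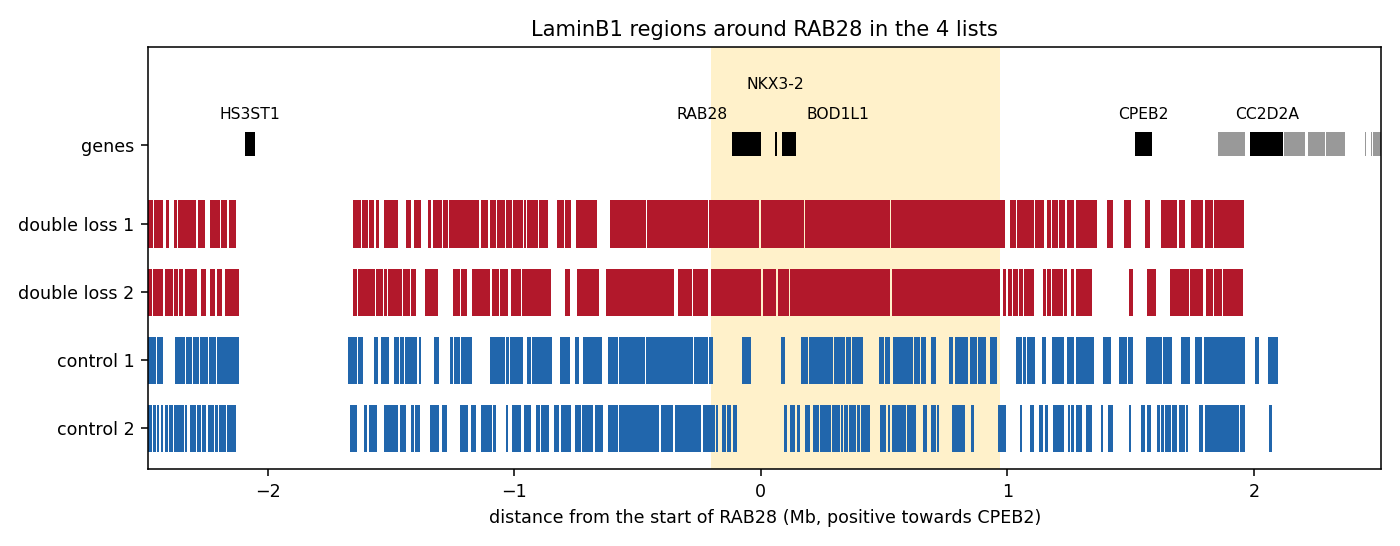
Regions of the 4 lists (blocks; double loss in red, control in blue) by distance from the start of RAB28 in Mb, with the member genes as black bars and other protein-coding genes as grey bars above. The shaded stretch, 1174 kb long, holds RAB28, NKX3-2 and BOD1L1 and is covered over 98.7% and 98.2% in the double loss lists and over 54.9% and 49.8% in the control lists.

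In steps of 20 kb, a step counted as covered in a list when at least 50% of it lay inside regions. Of the 250 steps of the span, 93 were covered in all 4 lists, 52 in none, 18 in the double loss lists alone (both of them), and 2 in the control lists alone (both of them). The 18 steps are 9.09% of the 198 steps covered in any list, and the 2 steps are 1.01%. Over chromosomes 1 to 22 and X, the same shares were 6.47% and 4.4%, and over the rest of chromosome 4 they were 10.8% and 2.17%. The whole span therefore did not stand above the rest of its chromosome in this count. The longest run of such steps, 6 of them from 13440001 to 13560000, reached from the promoter-side part of RAB28 over NKX3-2. Of the 18 steps, 15 lay among the 57 whole steps between 13282001 and 14456000, or 26.3% of them, and 3 among the 141 covered steps of the remaining span, or 2.13%. This interval was delimited by regions of the double loss lists alone, so a higher share inside it is in part built in. With control 1 left out the 18 steps became 45, and with control 2 left out 37, since each control list covers steps that the other does not.

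The longest run of steps covered in all 4 lists, 19 of them from 12880001 to 13260000, lay just left of the stretch. Left of RAB28 the lists thus share a long domain, and the groups part at about its right end. The covered share of the stretch of equal length to the left was 82.3% and 76.8% in the double loss lists, against 73.8% and 71.5% in the control lists. To the right it was 59.0% and 51.2% in the double loss lists, against 60.2% and 47.1% in the control lists. The groups did not overlap on the left, with a small gap, and overlapped on the right.

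Reads of the control libraries, by which each group's regions were scored, were raised over the stretch in the double loss lists. They are known only as means over regions, so a change in them can show only at a region edge. The stretch was delimited by these reads in the double loss lists alone. In each it was the longest run of regions of the span at or over a threshold, and the part common to both was taken. The threshold was 1.3 times the control library reads per kb of the rest of chromosome 4 in the same list. Its edges are therefore edges of double loss regions, and high coverage inside it in those lists is in part built in. In double loss 1 the region that ended at 13269000 held 8.62 control library reads per kb and the next one 11.96, and at the other end 11.7 per kb was followed by 7.19 from 14494001. In double loss 2 the region that ended at 13269000 held 8.31 and the next one 12.1, and at the other end 11.9 was followed by 7.14 from 14465001. Inside the stretch, where 1.3 times was required, every double loss region stood at 1.43 to 1.59 times the rest of chromosome 4. Outside it no double loss region of the span exceeded 1.23 times. Elsewhere on chromosome 4, 9 of 1058 regions in double loss 1 and 10 of 1060 in double loss 2 reached 1.3 times. Among those of 100 kb or more, 1 of 72 did in double loss 1, at 1.40 times, and 0 of 79 in double loss 2. In the control lists regions of the stretch stood at 0.722 to 1.24 times the rest of chromosome 4, with no step at these edges.

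Over the stretch, control library reads were at 12.2 and 12.2 per kb in the double loss lists, against 6.52 and 6.43 per kb in the control lists. Behind these values stand 14105 and 14103 control library reads in the double loss lists, against 4208 and 3763 in the control lists. The rest of chromosome 4 was at 8.15 and 8.14 per kb in the double loss lists, against 6.32 and 6.35 in the control lists. The ratio of double loss to control was 1.88 in the stretch and 1.29 in the rest of the chromosome, so the stretch stood 1.46 times above it. The flanks of equal length stood at 1.00 and 1.01 times.

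LaminB1 reads followed nearly the same profile. Over the stretch they were at 17.1 and 17.5 per kb in the double loss lists, against 11.2 and 12.2 per kb in the control lists. The rest of chromosome 4 was at 12.9 and 12.9 per kb in the double loss lists, against 11.9 and 12.7 in the control lists. The double loss to control ratio of LaminB1 reads in the stretch stood 1.41 times above that of the rest of the chromosome, and the flanks stood at 1.03 and 1.01 times. On the log2 scale and relative to the rest of chromosome 4 in the same list, LaminB1 reads were at 0.41 and 0.44 in the double loss lists, against -0.08 and -0.06 in the control lists. Control library reads were at 0.58 and 0.59 in the double loss lists, against 0.05 and 0.02 in the control lists. The gap between the groups was many times the spread within a group for both kinds of reads, and both lists of a group share the reads of 1 control library, so the second pair of values in each group is no independent check of the first. Reads of an antibody control library follow, among other things, how many copies of a sequence a cell has; whether the copy number of the stretch differs between the lines was not tested.

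**Figure D3:**
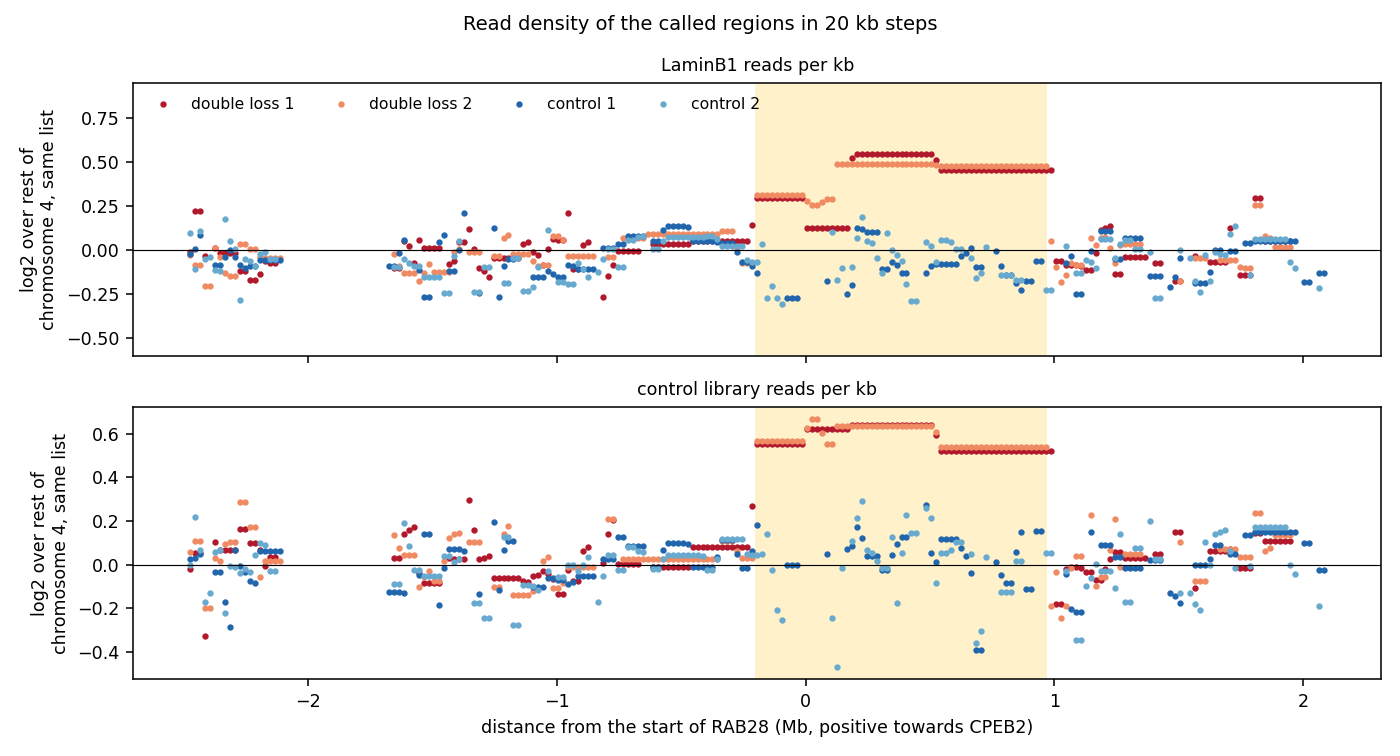
LaminB1 reads per kb (upper panel) and control library reads per kb (lower panel) of called regions in 20 kb steps, as log2 over the rest of chromosome 4 of the same list, by distance from the start of RAB28; steps with under 5 kb of regions are left out, and each step takes the mean density of its regions. In the shaded stretch the double loss lists (red, orange) average 0.41 and 0.44 for LaminB1 and 0.58 and 0.59 for the control library, and the control lists (blue, light blue) lie around 0.

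A rise of control library reads of this size was not found in any other window that could be measured. In all, 648 windows of 1 Mb held 150 kb or more of sequence that every list called, 44 of them on chromosome 4 outside the span. Control library reads, double loss over control and relative to the median window, were at 0.35 (log2) in the window from 14000001 to 15000000 and at 0.29 in that from 13000001 to 14000000. These were the 2 highest of the 648 windows, and the highest outside the span was at 0.18. LaminB1 reads in the same windows were at 0.32 and 0.27, the second and the third highest, after a window on chromosome 8 at 0.35. The other 3 windows of the span, which do not touch the stretch, were at 0.05, -0.02 and -0.03 for control library reads. Elsewhere on chromosome 4 windows ranged from -0.11 to 0.07. All 15 windows under -0.2 lay on chromosome 20.

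**Figure D4:**
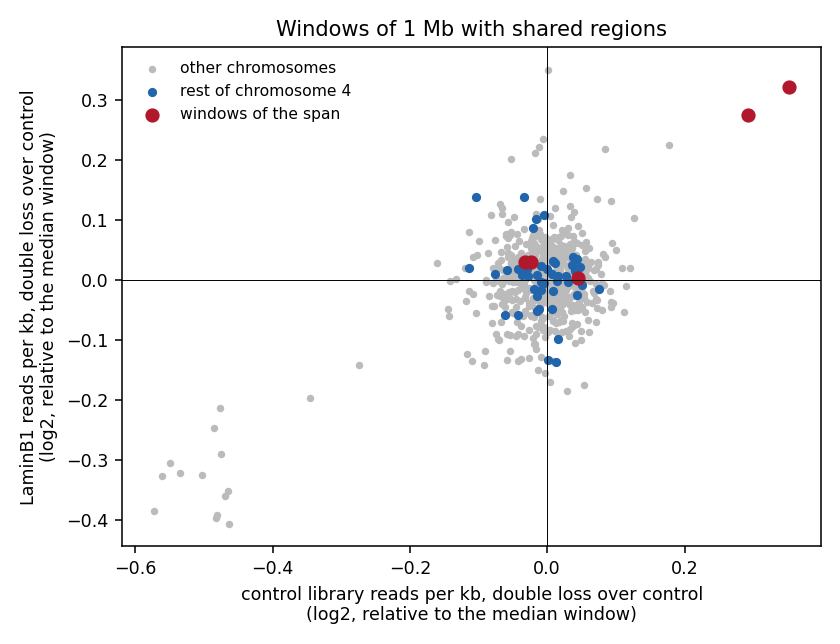
Windows of 1 Mb by control library reads per kb (horizontal axis) and LaminB1 reads per kb (vertical axis), double loss over control, log2 relative to the median window. The windows from 13000001 to 15000000 on chromosome 4 (the 2 red points at the upper right, 0.29 and 0.35 on the horizontal axis) stand apart from the other 3 windows of the span and from the rest of chromosome 4 (blue), and the group at the lower left is on chromosome 20.

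In the double loss lists, the regions over RAB28, NKX3-2 and BOD1L1 had log2 folds below the median of their list, 0.51 in double loss 1 and 0.50 in double loss 2. The authors' log2 fold is that of LaminB1 over control library reads less a constant that differs from list to list, so folds are read against other regions of the same list and not between groups. The region over RAB28 in double loss 1, from 13275001 to 13476000, held 3181 LaminB1 and 2404 control library reads and had a log2 fold of 0.34, and 15.6% of the regions of that list were lower. The region over RAB28 in double loss 2, from 13282001 to 13486000, held 3275 LaminB1 and 2461 control library reads and had a log2 fold of 0.33, and again 15.6% were lower. Of the smaller regions in RAB28, that of control 1 had a log2 fold of 0.37, with 17.7% of its list lower, and that of control 2 had 0.63, with 55.7% lower.

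The region over NKX3-2, BOD1L1 and the start of RAB28 in double loss 1, from 13483001 to 13661000, had a log2 fold of 0.10, and 0.161% of the regions of that list were lower. It held 2498 LaminB1 and 2232 control library reads. In double loss 2 the region over NKX3-2, from 13491001 to 13546000, had a log2 fold of 0.18, with 1.49% lower, and the regions over BOD1L1, 46 and 408 kb wide, had 0.32 and 0.44, with 14.2% and 34.8% lower. The region in BOD1L1 in control 1 had 0.42, with 24.4% of that list lower, and those in control 2 had 1.03 and 0.98, with 98.1% and 97.0% of that list lower. The double loss regions over the 3 genes thus lay between 0.161% and 34.8% from the bottom of their lists, and the control regions between 17.7% and 98.1%. Over the stretch and its left flank, log2 folds from summed reads were 0.43 and 0.58 in double loss 1, and 0.44 and 0.60 in double loss 2. They were 0.51 and 0.61 in control 1, and 0.61 and 0.65 in control 2, so the stretch was below its left flank in each of the 4 lists.

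**Figure D5:**
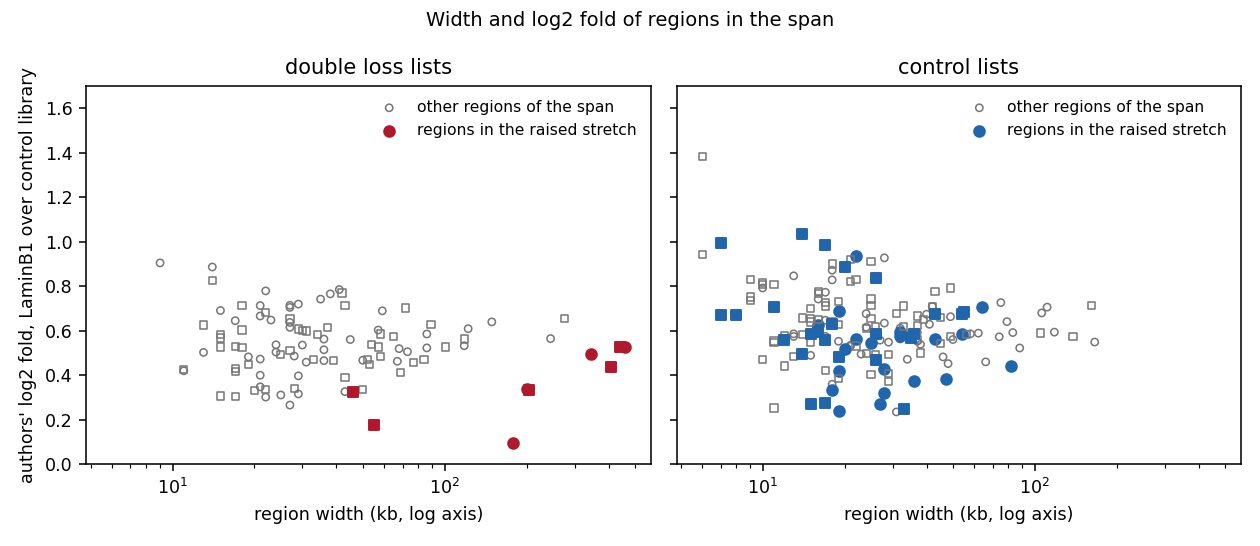
Width (horizontal axis, kb, log scale) and the authors' log2 fold (vertical axis) of every region of the span in the double loss lists (left) and the control lists (right); filled symbols lie at least 50% inside the stretch, open ones outside, circles are replicate 1 and squares replicate 2. In the double loss lists the stretch is made of 4 and 5 regions of 46 to 461 kb with log2 folds of 0.10 to 0.53, and in the control lists of narrower regions of 7 to 82 kb.

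Since the double loss regions over the 3 genes lay below the median fold of their lists, a filter at the median removed them. When each list was reduced to its upper 50% by log2 fold, RAB28 was at 0% in both double loss lists, against 0% and 15.4% in the control lists, a difference of -7.72 points. NKX3-2 was then at 0% in all 4 lists, and BOD1L1 at 0% in both double loss lists, against 0% and 52.6% in the control lists. CPEB2 then stayed at 31.0% and 31.3% in the double loss lists, against 0% and 47.3% in the control lists, so its groups overlapped. CC2D2A was then at 0% in both double loss lists, against 0% and 10.6% in the control lists, so no member kept groups that did not overlap. When every list kept as many regions as the shortest one, by log2 fold, RAB28 stayed at 92.8% and 100% in the double loss lists, against 30.9% and 15.4% in the control lists. NKX3-2 was at 0% in all lists under that setting, and BOD1L1 was at 0% and 93.2% in the double loss lists, against 24.2% and 52.6% in the control lists.

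Over the whole span, 65.8% and 63.4% lay inside regions in the double loss lists, against 54.2% and 48.8% in the control lists. The means were 64.6% ± 1.71 in the double loss group and 51.5% ± 3.78 in the control group (SD, n = 2 each), and the groups did not overlap. Without the stretch, the difference of the means was 2.98 points, against 13.1 points with it. LaminB1 reads per kb of the span, over the rest of chromosome 4, were higher in the double loss group by 0.20 (log2) with the stretch and by 0.02 without it. For control library reads these differences were 0.23 and 0.01.

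The 5 genes of at least 20 kb outside the span whose covered share was nearest to that of RAB28 over the 4 lists, out of 10979 compared, were NAALADL2, HGD, CLDN16, MS4A14 and MRPS28. Their root mean square differences from RAB28 were 7.77 to 11.3 points. NAALADL2 on chromosome 3, the nearest, was at 94.4% and 95.8% in the double loss lists, against 33.6% and 30.2% in the control lists. Control library reads per kb come from the covered part of each gene, which differs in length and place between lists, so they are given as values and not ranked. In RAB28 they were at 11.97 and 12.06 per kb in the double loss lists, against 6.31 and 5.33 per kb in the control lists. The covered lengths behind them were 109.6 and 116.6 kb in the double loss lists, against 36 and 18 kb in the control lists, with no base common to all 4. In NAALADL2 they were at 7.52 and 7.48 per kb in the double loss lists, against 6.30 and 6.16 per kb in the control lists. The covered lengths there were 1293 and 1313 kb in the double loss lists, against 459.5 and 413 kb in the control lists. MRPS28 had 12.26 and 12.26 control library reads per kb in the double loss lists, against 9.41 and 10.19 in the control lists. CLDN16 had 8.17 and 8.06, against 6.34 and 6.71. HGD had 9.53 and 9.63, against 6.13 in control 1 and no covered sequence in control 2. MS4A14 had 8.39 and 8.47, against 6.23 in control 1 and no covered sequence in control 2.

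Genes with roles related to those of the members lie on many chromosomes, and few of them were covered. Of 7 heparan sulfate 3-O-sulfotransferase genes, 4 had covered sequence in any list, and 2 of them lay above both control lists in both double loss lists, where 21.5% of all covered genes did. HS3ST3B1 on chromosome 17, with the largest difference of means, was at 0% in both double loss lists, against 49.7% and 0% in the control lists, and its groups overlapped. HS3ST5 on chromosome 6 was at 84.5% and 89.9% in the double loss lists, against 69.4% and 72.9% in the control lists. HS3ST4 on chromosome 16 was at 16.6% and 42.3% in the double loss lists, against 50.5% and 32.8% in the control lists, and its groups overlapped. Of 16 genes of heparan sulfate chain synthesis and sulfation, 5 were covered, with 1 above and 1 below, against 21.5% and 13.8% of all covered genes. The one above was the polymerase gene EXT1 on chromosome 8, at 87.8% and 94.4% in the double loss lists, against 54.9% and 46.5% in the control lists.

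Of 19 genes of the ciliary transition zone, CC2D2A and NPHP4 were the 2 with covered sequence. NPHP4 on chromosome 1 was at 25.5% and 0% in the double loss lists, against 0% in both control lists. Of 14 NKX homeobox genes, NKX2-2 on chromosome 20 was the one covered beside NKX3-2, at 0% in both double loss lists, against 74.4% and 0% in the control lists. Among 4 CPEB genes, CPEB1 on chromosome 15 was covered beside CPEB2, at 17.99% and 0% in the double loss lists, against 0% in both control lists. BOD1L2 on chromosome 18, a paralog of BOD1L1, was at 100% in all 4 lists. The median difference over the covered genes of the lists named here was between -6.92 and 29.1 points, against 0.776 over all 3057 covered genes, and each of these medians rests on 2 to 5 genes. Members chosen on this contrast are inside some of them: BOD1L1 in the highest, CC2D2A in the lowest, and NKX3-2 and CPEB2 in others. Nothing is therefore read from these medians.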

How the data were processed

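Per the labels' protocols, the LaminB1 CUT&RUN libraries were read from both ends over 75 bp. The submitters' processing notes name Bowtie2 2.3.4.3, Picard and hg38; which program called the regions is not given in the sources used here. The authors deposited 1 list of regions per LaminB1 library, on a 1 kb grid. Each list holds, per the file headers, whole-number counts of LaminB1 reads and of control library reads per region, not normalized, and the p-value of the region, raw and adjusted, the adjusted one never over 0.05. It also holds a log2 fold and a score, deposited by the authors, where the score is 100 times the log2 fold as tested on the values. Where the lists of a group had a region with identical edges, its control library counts were equal in all 61 double loss and all 44 control cases, against 3 of 154 cases between groups, so 1 control library served each group. That these are the IgG libraries is not stated in the sources used here, and files of the IgG libraries were not analysed here.

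The lists held 12410 and 12242 regions with 8151172 and 8351031 LaminB1 reads in the double loss group, against 10771 and 13599 regions with 7374626 and 7263458 reads in the control group, on chromosomes 1 to 22 and X. Total library depth is unknown, so densities were compared within a list, against the rest of chromosome 4. Lists were matched to samples by genotype and replicate number in their names. The control lists are named for the TOP2A mAID line and their samples are titled WT, so that match also rests on the series text and protocols. Covered shares, 20 kb steps and reads per kb were computed with Python 3.11.15, numpy 2.4.6 and pandas 2.3.3. A region's reads were shared out evenly along it, so densities are means over regions, and sequence outside regions has no value. Gene positions came from the RefSeq table of GRCh38.p14 (chromosome coordinates as in hg38), and promoter sequences and gene starts from RefSeq tables of the same build; all 6 members matched.

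The members and gene lists were chosen with earlier results of these data known, so no test was run and group values are set beside the spread of 2 lists a group. The stretch of raised control library reads was defined after its values were seen. Named genes were the members, the other protein-coding genes of the span, the 5 genes nearest to RAB28 (at least 20 kb, at most 1 per 1 Mb) and up to 3 genes per list; 1 further list, with a higher median difference than the others, is not reported here. Coverage arithmetic was tested on simulated intervals. Alternatives left out each list, filtered regions by log2 fold or width, joined regions, added flanks, and changed steps, span edges and the density measure.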

Additional observations from a re-analysis of the deposited data

How the results depend on the processing

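No paired analysis was possible because the values come from no test, so there was no fit to hold a replicate block. For the 4 differences, 46 alternatives were tried and 45 kept the direction; the count of steps has no direction. The difference of RAB28 turned to -7.72 points when lists were reduced to their upper 50% by log2 fold, where no double loss region over RAB28 remained; with 1 list left out it ranged from 66.1 to 81.6 points. The difference of the span was 4.79 points with the upper 50% of regions, 22.3 points for 12 to 15 Mb, 7.72 points for 10 to 17 Mb and 2.98 points without the stretch from 13282001 to 14456000, a setting chosen after seeing the data; with 1 list left out it ranged from 10.4 to 15.8 points. The 18 steps covered in the double loss lists alone became 9 when any overlap counted, 38 when a step had to be covered whole, 3 without the stretch, and 19 to 45 with 1 list left out. LaminB1 reads per kb of the span over the rest of chromosome 4, at 0.20 (log2, double loss minus control), were at 0.16 with the upper 50% of regions, 0.26 for 12 to 15 Mb, 0.15 for 10 to 17 Mb, 0.19 in regions that overlap stretches covered in all 4 lists, 0.029 as a median over regions and 0.021 without the stretch. Control library reads, at 0.23, were at 0.17 with the upper 50% of regions, 0.29 for 12 to 15 Mb, 0.17 for 10 to 17 Mb, 0.25 against chromosomes 1 to 22, 0.039 as a median over regions and 0.012 without the stretch. The median counts a region of 461 kb as 1 region. With 1 list left out these ranged from 0.20 to 0.21 for LaminB1 and from 0.23 to 0.24 for control library reads, where leaving out a list leaves the group's 1 control library in place. The lists give reads inside regions alone, so read density where a control list has no region is unknown.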

Other observations

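Noncoding genes of the span were in part covered like the coding ones. Of 30 long noncoding RNA genes, 26 had covered sequence in any list, 14 lay above both control lists in both double loss lists and 1 lay below. Over all 5377 covered long noncoding RNA genes, 14.5% lay above and 11.1% below. Of the 14, 8 were among the 9 genes that overlap the stretch of raised control library reads, and 6 were among the 17 covered genes in the rest of the span. That stretch was delimited by double loss regions alone, so a high count inside it is in part built in. The span was chosen around RAB28 on this contrast, so nothing is read from these counts. LINC01097 and LOC124900669, between RAB28 and NKX3-2, were at 100% in both double loss lists, against 0% in both control lists. LINC01182, a gene of 276.1 kb next to BOD1L1, was at 98.6% and 100% in the double loss lists, against 81.4% and 80.1% in the control lists. LINC00504, which starts at 14470465, past the part of that stretch common to both double loss lists, was at 75.8% and 64.0% in the double loss lists, against 60.4% and 45.4% in the control lists.

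The microRNA gene MIR5091 was inside regions in both double loss lists and in neither control list, and MIR572 and MIR12113, on either side of HS3ST1, were outside regions in all 4 lists. LOC105374489, a long noncoding RNA gene at the edge where coverage begins again after HS3ST1, went the other way, at 0% in both double loss lists, against 100% in both control lists.

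The window next highest in control library reads after those of the span, from 161000001 to 162000000 on chromosome 2, was at 0.18 (log2, double loss over control, relative to the median window), with LaminB1 reads at 0.22. It rests on 151 kb that every list called, just over the 150 kb required, against 435 and 317 kb in the windows from 13000001 and from 14000001 on chromosome 4.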
